A study of Mus musculus with 8 samples.

Results

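H3K9ac, the acetylation of lysine 9 on histone H3, was compared between BM cells of *GFI1-36N* and *GFI1-36S*, *NUP98-HOXD13-tg* mice that had received vehicle. The comparison took the 2 ChIP-seq libraries labelled with these genotypes and no curcumin, out of 8 samples of which 6 have a peak list. Their lists held 39564 peaks in *GFI1-36N* and 41312 in *GFI1-36S*, together 80876 of the 220499 peaks of the series. All mice were C57BL/6 and carried the Nup98-HOXD13 transgene, which models a myelodysplastic syndrome that can turn into acute myeloid leukaemia. In *GFI1-36S* mice a human *GFI1* coding sequence with the common serine stands in the murine *Gfi1* locus, and in *GFI1-36N* mice the same sequence with asparagine in its place, the variant tied to a higher leukaemia risk. The human protein is therefore made from a murine promoter. Whether a murine *Gfi1* allele remained beside it is not given in the labels. No library labelled as having an unchanged *Gfi1* locus was analysed here. *GFI1-KD* mice, used here only for values set beside the comparison, have a reduced level of GFI1. Vehicle was DMSO in the volume used for curcumin, while the other arm of the study received 20 mg/kg curcumin weekly by intraperitoneal injection. The cells were frozen BM, labelled as whole BM, and the antibody was ab4441. The number of animals behind a library is not given in the sources used here.

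Each genotype had 1 vehicle library, so no difference below has a replicate check, and no test was run. Fold enrichment is not scaled between lists, so each gene was given the place of its best promoter peak within its own library as a rank between 0, no peak, and 100, and a difference of 20 points was the threshold. The number of fragments at each summit was recovered from the deposited values. It gave a summit height, relative to the mean of the same library, whose log2 ratio of *GFI1-36N* over *GFI1-36S* was set to 0 at the median promoter and carries an exact 95% interval. The list of the *GFI1-36S* vehicle sample bears a file name that states curcumin. The sample label was followed, and the totals and the medians of the gene lists described at length are also given with the 2 *GFI1-36S* lists exchanged. The names of both vehicle lists carry the mark +ki, which the labels do not repeat and which was not used. In bulk marrow, fewer cells of a type and less acetylation per cell cannot be told apart.

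GFI1 is a zinc finger protein that represses transcription in blood cells by recruiting histone deacetylases and the demethylase LSD1 to its target sites. It favours the granulocytic over the monocytic path and is active in stem cells and lymphoid precursors. H3K9ac is laid down by acetyltransferases at active promoters and enhancers and is removed by the deacetylases that GFI1 recruits, which is why the genotypes were compared for this mark.

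The sequences shown here come from genes or sites that carry the results below, chosen because they hold a match to the DNA motif of a factor that is known for the cell lineage concerned. Motifs were searched on both strands and matches are in capitals. The interferon-stimulated response element (ISRE) was searched as TTTC, any 2 bases and TTTC, PU.1 as GAGGAAGT, GATA factors as AGATAAG and GFI1 as AATCACNGC, where N is any base. The promoters are the 250 bases before the start of the gene, read on the minus strand of GRCm38 (mm10 coordinates) from RefSeq. They are *Oas1a* at chr5:120907526-120907775, with 2 overlapping ISRE matches, *Ly6c2* at chr15:75111972-75112221, with PU.1, and *Epor* at chr9:21963577-21963826, with GATA.
Oas1a promoter: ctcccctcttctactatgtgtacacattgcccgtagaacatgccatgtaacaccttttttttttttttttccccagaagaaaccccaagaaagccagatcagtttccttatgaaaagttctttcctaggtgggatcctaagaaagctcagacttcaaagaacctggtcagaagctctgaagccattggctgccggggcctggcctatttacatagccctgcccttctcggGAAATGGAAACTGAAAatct
Ly6c2 promoter: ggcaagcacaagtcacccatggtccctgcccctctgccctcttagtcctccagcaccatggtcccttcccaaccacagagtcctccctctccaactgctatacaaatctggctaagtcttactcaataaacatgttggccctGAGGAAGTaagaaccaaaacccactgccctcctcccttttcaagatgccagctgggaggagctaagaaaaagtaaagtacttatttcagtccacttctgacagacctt
Epor promoter: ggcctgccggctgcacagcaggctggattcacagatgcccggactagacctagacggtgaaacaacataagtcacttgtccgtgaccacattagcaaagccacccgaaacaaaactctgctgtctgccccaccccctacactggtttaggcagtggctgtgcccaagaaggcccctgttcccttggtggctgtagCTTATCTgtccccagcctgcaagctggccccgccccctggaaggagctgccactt
*Oas1a* encodes an antiviral oligoadenylate synthetase, and its promoter rank was 33.6 in *GFI1-36N* and 6.61 in *GFI1-36S*. *Ly6c2* encodes a surface antigen of inflammatory monocytes, with ranks of 35.6 and 20.1 and, as log2 ratio of the summit heights, 0.65 (0.17 to 1.13). *Epor* encodes the erythropoietin receptor and showed the opposite order, with 4.21 and 22.2. A match describes letters in the window only.

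The sites printed next are 201 bases around the summit of a distal peak found in 1 of the 2 libraries, on the plus strand of the same build. The *Irf8* site at chr8:120807180-120807380 had a *GFI1-36N* peak of 23 fragments and a PU.1 match. The *Dleu7* site at chr14:61968127-61968327 was the strongest *GFI1-36N* site with a GFI1 match under these rules, with 32 fragments. The *Ank1* site at chr8:23030582-23030782 had a *GFI1-36S* peak of 26 fragments and a GATA match. The *Ccr1* site at chr9:123965071-123965271 was the strongest *GFI1-36S* site with a GFI1 match under these rules, with 56 fragments.
Irf8 distal site: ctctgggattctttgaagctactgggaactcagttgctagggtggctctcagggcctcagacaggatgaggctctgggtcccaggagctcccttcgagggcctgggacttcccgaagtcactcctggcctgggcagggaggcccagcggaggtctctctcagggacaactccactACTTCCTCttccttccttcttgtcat
Dleu7 intergenic site: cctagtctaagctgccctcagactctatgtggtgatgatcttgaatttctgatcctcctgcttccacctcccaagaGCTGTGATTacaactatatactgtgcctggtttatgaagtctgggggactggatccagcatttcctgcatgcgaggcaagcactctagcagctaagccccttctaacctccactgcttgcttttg
Ank1 intron site: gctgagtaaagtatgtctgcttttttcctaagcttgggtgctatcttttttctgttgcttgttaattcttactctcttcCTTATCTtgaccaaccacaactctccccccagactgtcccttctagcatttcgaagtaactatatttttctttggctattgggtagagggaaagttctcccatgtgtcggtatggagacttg
Ccr1 intron site: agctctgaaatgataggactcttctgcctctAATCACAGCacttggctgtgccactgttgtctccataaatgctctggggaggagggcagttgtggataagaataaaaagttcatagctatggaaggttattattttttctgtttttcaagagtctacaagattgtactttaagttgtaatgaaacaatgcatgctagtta
*Irf8*, a transcription factor that monocytes and dendritic cells need, starts 68.6 kb from its site, which lies beyond the end of *Irf8* and only within the long annotated gene model *Gm20388*. *Dleu7* starts 324.7 kb from its intergenic site. *Ank1*, which encodes the ankyrin of the red cell membrane, holds its site in an intron, 4.4 kb upstream of an internal TSS and 55.8 kb from the annotated 5′ end of the gene. *Ccr1*, which encodes a chemokine receptor of myeloid cells, holds its site in an intron 3.5 kb from the start. The *Irf8* site had a peak in none of the other 5 lists, whereas the *Ccr1* site had a peak in *GFI1-36N* curcumin, the *Dleu7* site in *GFI1-36N* and *GFI1-KD* curcumin, and the *Ank1* site in *GFI1-36N* curcumin and *GFI1-KD* vehicle.

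The 2 lists were of similar size. Peaks covered 36.4 Mb in *GFI1-36N* and 36.8 Mb in *GFI1-36S*, with a median width of 560 and 506 bp and a median of 30 and 28 fragments at the summit. Total reads per library are not part of the lists, so the depth was read from the fragments at the summits, which could be recovered for 99.7% and 99.9% of peaks. The average coverage around the TSS was also close. At 200 bp downstream, where it was highest in both, 45.7% of coding genes were under a peak in *GFI1-36N* and 46.2% in *GFI1-36S*.

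The marrow label was checked against lineage markers. Of 27 erythroid, 18 neutrophil granule and 16 monocyte and macrophage genes, 26, 15 and 16 had a promoter peak in at least 1 of the 2 lists. For all coding genes this was 11732 of 21938. B cell genes were mostly bare, with a peak at 4 of 16, and *Cd79a*, *Pax5*, *Ebf1* and *Ms4a1* had none in either list. *Cd79b* was the exception, with 74 fragments in *GFI1-36N* and 61 in *GFI1-36S* and ranks of 24.5 and 19.8. *Rag2*, *Cd22* and *Blnk* had 19 to 22 fragments in 1 list each. T cell genes had a peak at 12 of 18, with median ranks of 5.90 in *GFI1-36N* and 5.41 in *GFI1-36S*. In the library labelled *GFI1-36S* curcumin the same 12 genes had a median rank of 43.6, with *Tcf7* at 90.8 and *Bcl11b* at 85.0, so that library differed from both vehicle libraries in its T cell genes.

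The local background against which the peaks were called was not alike. In the *GFI1-36N* list it averaged 1.02 to 1.03 times the genome background on every chromosome. In the *GFI1-36S* list it averaged 1.63 on chromosome 15, 1.26 on chromosome 14 and 1.18 on chromosome 1, against 1.06 to 1.08 on the other autosomes. Both *GFI1-KD* lists and the *GFI1-36S* curcumin list showed the same on chromosome 15, with 1.62 to 1.64. Fold enrichment divides by this background. On chromosome 15 the median promoter ranked 13.8 points higher in *GFI1-36N*, on chromosome 14 by 4.47 and on chromosome 1 by 2.35, whereas on the remaining chromosomes the median difference lay between -2.68 and -0.29. The summit height, which uses no control, did not show this. Its median log2 ratio was 0.00 on each of these 3 chromosomes and between -0.05 and 0.03 on the others. The series holds an input sample labelled *GFI1-36S* without curcumin and a rabbit IgG sample labelled *GFI1-36N*, neither analysed here, and which of them each list was called against is not given in the sources used here. In the library labelled *GFI1-36S* curcumin the summit heights over those of *GFI1-36S* vehicle were themselves raised on the same chromosomes, with centred median log2 ratios of 0.72, 0.38 and 0.14. Whether this bears on the treatment labels was not tested.

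**Figure D1:**
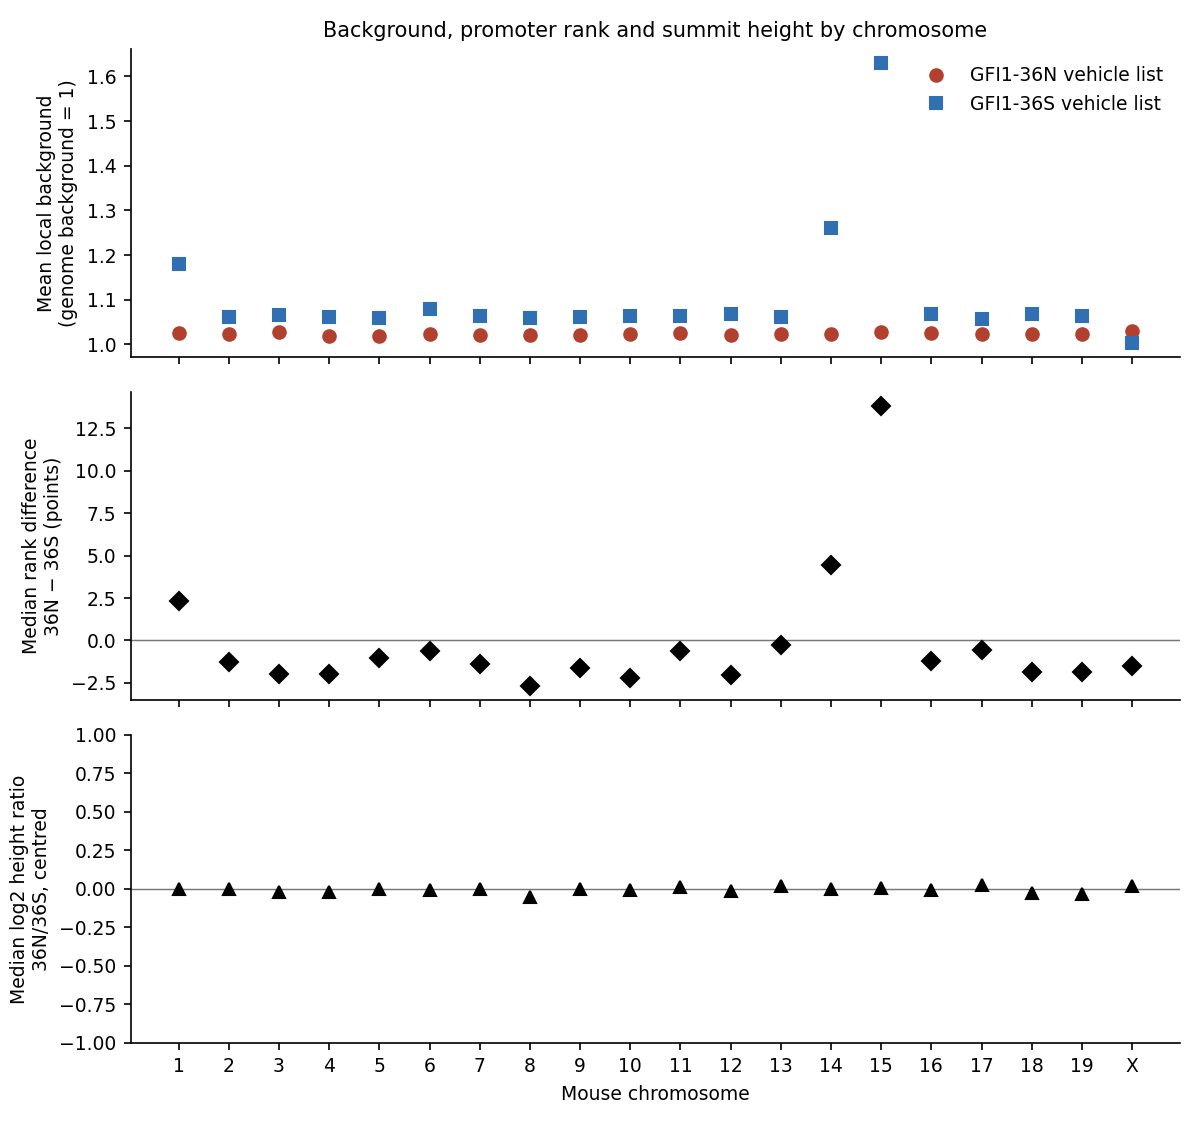
Mean local background at the peaks (top, genome background = 1), median promoter rank difference (middle, points of 100) and median log2 summit height ratio (bottom, centred) for each mouse chromosome, with 1 library per genotype. The *GFI1-36S* list stands at 1.63 on chromosome 15, where the rank difference is 13.8 points and the height ratio 0.00.

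The *Gfi1* promoter differed little between the genotypes. Its strongest peak had 66 fragments in *GFI1-36N* and 64 in *GFI1-36S*, a rank of 21.1 and 21.0 and a centred log2 height ratio of 0.04 (-0.47 to 0.56). The peak reached from 107724177 to 107727214 on chromosome 5 in *GFI1-36N*, 3038 bp, and from 107722858 to 107727345 in *GFI1-36S*, 4488 bp. Within 60 kb of *Gfi1*, 8 peaks covered 6517 bp in *GFI1-36N* and 9 peaks 9111 bp in *GFI1-36S*. The *GFI1-36S* list held small peaks 7.41 and 8.35 kb downstream of the annotated start, of 19 and 17 fragments, where the *GFI1-36N* list had none.

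Genes of the corepressor complexes that GFI1 recruits differed little. *Kdm1a*, which encodes LSD1, ranked at 79.1 and 81.2, *Rcor1*, its partner CoREST, at 90.6 and 91.6, and *Hdac1* at 62.7 and 64.9, with *GFI1-36N* first here and in every pair of values below. Of 12 corepressor genes with a peak, the median difference was -2.28 points. Only *Hmg20b*, an LSD1 complex subunit, passed 20 points, with 117 and 153 fragments and ranks of 47.8 and 72.3.

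Of 21938 coding genes, 11333 had a promoter peak in *GFI1-36N* and 11377 in *GFI1-36S*, where a promoter is 1 kb on each side of any TSS. Both lists shared 10978 of these. A promoter peak in *GFI1-36N* alone was found at 355 genes, 3.03% of the 11732 with a peak in either list, and in *GFI1-36S* alone at 399, 3.4%. The *GFI1-36N* share of the promoters that differed was 47.1% (Wilson 95% interval 43.5 to 50.7). Intervals here cover counting error only, since sequenced fragments may be PCR copies. With the *GFI1-36S* lists exchanged the share was 88.8%, and the exchanged list was smaller, with 20354 peaks beside 41312. Peaks of 1 library were mostly weak, with a median rank of 3.61 in *GFI1-36N* and 4.99 in *GFI1-36S*. A rank over 20 was reached by 7 of the *GFI1-36N* promoters and 33 of the *GFI1-36S* promoters.

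Of the promoters with a peak in *GFI1-36N* alone, *Lemd3*, which encodes an inner nuclear membrane protein, had 203 fragments and a rank of 90.8, and *Zfpm2*, which encodes the GATA cofactor FOG2, 202 fragments and a rank of 90.6. *Lemd3* also lacked a peak in *GFI1-KD* vehicle, while the 3 curcumin libraries ranked it between 78.8 and 93.2. *Zfpm2* had a peak only in *GFI1-36N* curcumin, at 77.8, and *GFI1-KD* curcumin, at 44.3, besides *GFI1-36N* vehicle. The next were far lower. *Ifi213*, an interferon-inducible gene, had 84 fragments, *Fgf13*, a fibroblast growth factor homologue, 76, *Klrk1*, the activating receptor NKG2D of NK cells, 60, *Rapgef5* 57, *Napb* 56 and *Ifi44*, another interferon-induced gene, 55. *Ifi44* had a promoter peak in no other library of the series.

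In *GFI1-36S* alone, *Ppp6r1*, a regulatory subunit of protein phosphatase 6, had 188 fragments and a rank of 89.5, and all 4 other libraries ranked it between 86.2 and 91.7. *GFI1-36N* vehicle was thus the library without this peak. *Gm49355* and *3830406C13Rik* shared a peak of 172 fragments, *Eps8l1*, which acts on the actin skeleton, had 134 and *Gsto2*, a glutathione transferase, 108. *Mn1*, a transcriptional coregulator that forms a fusion oncogene in myeloid leukaemia, had 106 fragments over a peak from 111416205 to 111425677 on chromosome 5 and no promoter peak in any other library. *Hoxa4* followed with 103 fragments and *Arrdc4* with 102. These 8 genes were present in *GFI1-36N* curcumin except *Mn1*, with ranks from 7.62 for *Hoxa4* to 87.5 for *Ppp6r1*.

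Among all 11732 promoters the rank differed by a median of -0.67 points, with quartiles of -7.05 and 5.65. It was at least 20 points higher in *GFI1-36N* at 679 genes, 5.79%, and in *GFI1-36S* at 521, 4.44%. The excess toward *GFI1-36N* was not present under other rankings, since 418 and 409 genes passed with ranks by −log10 p and 379 and 386 with ranks by summit height. By summit height, 495 of 10848 promoters with a peak in both lists were at least 1.5-fold higher in *GFI1-36N*, 4.56%, and 391 in *GFI1-36S*, 3.6%, after centring. Before centring the median log2 height ratio was -0.29. At 214 of 10978 promoters with a peak in both lists the strongest peaks did not overlap, so that the ratio sets different sites side by side. Without them 475 and 374 of 10634 promoters passed, and the list medians of the height ratio moved by up to 0.12. Promoter peaks were wider in *GFI1-36S* at 6233 genes and in *GFI1-36N* at 4723, with medians of 1836 and 1760 bp. With the *GFI1-36S* lists exchanged the median rank difference over all promoters was 5.65 points.

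With a peak in both lists, the promoter of *Lin28b* stood furthest toward *GFI1-36N* by rank. It encodes an RNA-binding protein of fetal stem cells that blocks let-7 microRNAs. The promoter had 206 fragments in *GFI1-36N* and 29 in *GFI1-36S*, ranks of 91.6 and 5.85 and a log2 height ratio of 2.83 (2.26 to 3.44). The *GFI1-36N* peak ran from 45457513 to 45470403 on chromosome 10, and the *GFI1-36S* peak, from 45468606 to 45469809, lay inside it. Within 50 kb of the gene peaks covered 14525 bp in *GFI1-36N* and 7601 bp in *GFI1-36S*. *GFI1-36N* curcumin and *GFI1-KD* curcumin also had a promoter peak, at 45.0 and 67.5, and the remaining 2 libraries did not. *Trim30a*, an interferon-induced gene, had 199 and 81 fragments with a log2 height ratio of 1.30 (0.92 to 1.69). For *Ptprc*, which encodes the leukocyte antigen CD45, with 239 and 142 fragments, and *Trps1*, a GATA-type repressor, with 186 and 106, the *GFI1-36S* list had a local background of 1.85 and 1.62, and the log2 height ratios were 0.75 and 0.81. *Rps7*, a ribosomal protein gene, ranked at 96.3 and 36.3 with 231 and 200 fragments. Its *GFI1-36S* background was 2.31 and its log2 height ratio 0.21 (-0.07 to 0.49), an interval that includes 0.

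Toward *GFI1-36S* the widest rank difference among shared promoters was that of *Mt1*, which encodes a metal-binding metallothionein, with 59 fragments in *GFI1-36N* and 161 in *GFI1-36S* and ranks of 18.2 and 77.2. Its log2 height ratio was -1.45 (-1.90 to -1.01). *Urb2*, a ribosome biogenesis gene, had 32 and 142 fragments, and *Ptpn3*, a protein tyrosine phosphatase, 21 and 109. Their log2 height ratios were wider, -2.15 and -2.38. Chromatin regulators were among the genes named by this rule. *Chd3*, the nucleosome remodelling subunit of the NuRD complex, had 39 and 137 fragments with a ratio of -1.81 (-2.36 to -1.29), and *Chd7*, another remodeller, 81 and 161 with -0.99. *Kat6a*, the histone acetyltransferase MOZ, was named with ranks of 28.9 and 77.2, but its strongest peaks were neighbours that did not overlap. At the site of the *GFI1-36S* peak of 161 fragments the *GFI1-36N* list had 146, and at the site of the *GFI1-36N* peak of 83 the *GFI1-36S* list had 91. *Larp1b* had 68 and 143 fragments. *Acsl5*, an acyl-CoA synthetase, had 143 and 150 fragments. There the *GFI1-36N* local background was 2.12, and the log2 height ratio was -0.07 (-0.41 to 0.27).

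**Figure D2:**
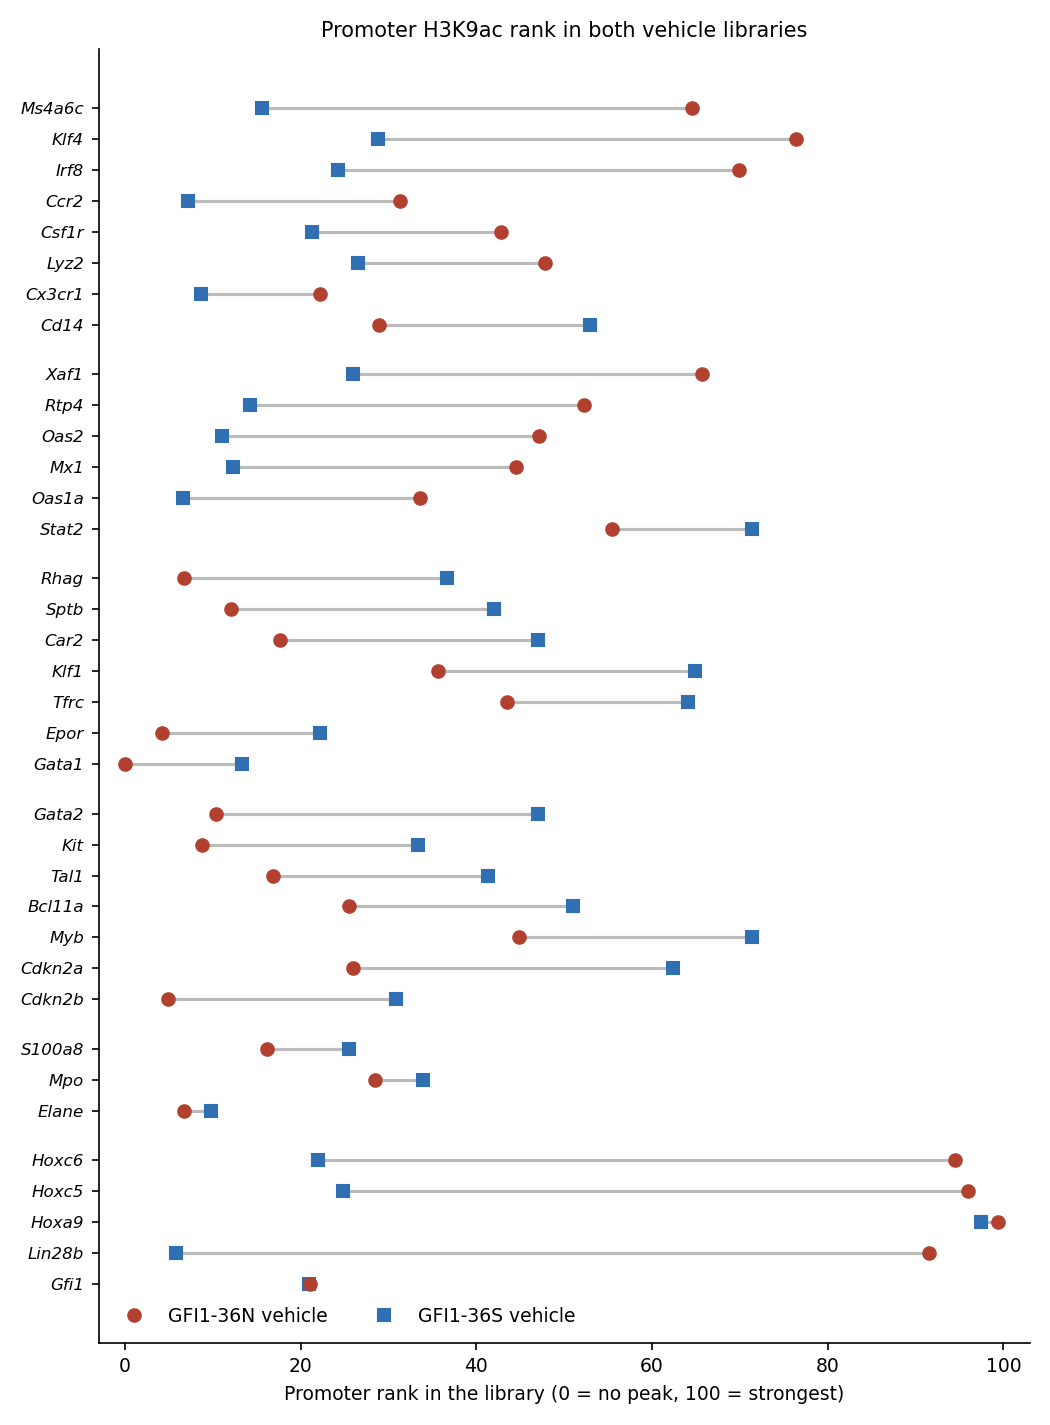
Promoter rank (points of 100 within each library, 0 for no peak) of named genes in the *GFI1-36N* (circles) and *GFI1-36S* (squares) vehicle libraries, with 1 library per genotype. The genes shown are a selection from their lists. Those of the monocyte and interferon groups at the top lie higher in *GFI1-36N* except *Cd14* and *Stat2*. The erythroid genes shown and *Gata2* and *Kit* below them lie higher in *GFI1-36S*. The erythroid genes *Nfe2* and *Aqp1* and 9 stem and progenitor genes, which rank higher in *GFI1-36N*, are not shown.

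Monocyte and macrophage genes ranked higher in *GFI1-36N*. Of 16 genes, all with a peak in both lists, 15 ranked higher in *GFI1-36N*, beside 46.4% of all promoters. A lead of at least 20 points was reached by 6, beside 5.79% of all promoters. The median difference was 13.9 points and the median log2 height ratio 0.70. At least 1.5-fold taller were 10 of 16, beside 4.56% of all promoters, and none was at least 1.5-fold shorter. *Ms4a6c*, a membrane gene of monocytes, had 144 fragments in *GFI1-36N* and 66 in *GFI1-36S*. *Klf4*, a factor of monocyte differentiation, had 164 and 82, and *Irf8* 153 and 72, so that these 3 lay in the upper ranks of *GFI1-36N*, at 64.5 to 76.4, and in the lower ranks of *GFI1-36S*, at 15.5 to 28.9. The chemokine receptor gene *Ccr2*, which brings monocytes out of the marrow, had 88 and 28 fragments, with the widest ratio of the group at 1.65 (1.02 to 2.32). *Csf1r*, the receptor for macrophage colony-stimulating factor, had 109 and 65 fragments, and *Lyz2*, lysozyme, 117 and 77. *Cd14*, the coreceptor for endotoxin, was the exception, with 83 and 123 fragments and ranks of 28.9 and 52.9. With the *GFI1-36S* lists exchanged the median difference was 30.1 points, and the *GFI1-36S* curcumin list had a peak at 2 of the 16 genes. The median rank in *GFI1-KD* vehicle was 25.97, between *GFI1-36N* vehicle at 30.1 and *GFI1-36S* vehicle at 17.6.

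Interferon-stimulated genes, which defend cells against viruses, showed the same order. Of 48 genes 44 had a peak, 37 ranked higher in *GFI1-36N* and 7 in *GFI1-36S*, beside 46.4% and 53.6% of all promoters. The median difference was 11.7 points. At least 20 points higher in *GFI1-36N* were 12 and in *GFI1-36S* none, beside 5.79% and 4.44% of all promoters. The median rank over the 44 genes was 50.3 in *GFI1-36N*, 31.3 in *GFI1-36S* and 53.3 in *GFI1-KD* vehicle, and lay between 9.25 and 22.9 in the 3 libraries labelled curcumin. The oligoadenylate synthetase genes on chromosome 5 stood higher in *GFI1-36N* as a block. *Oas2* had 116 fragments in *GFI1-36N* and 37 in *GFI1-36S*, *Oas1a* 93 and 27, *Oas3* 110 and 60, *Oasl2* 99 and 50 and *Oasl1* 52 and 19, while *Oas1g* had 45 in *GFI1-36N* and no *GFI1-36S* peak. The log2 height ratios of the 5 genes with both peaks lay between 0.87 for *Oas3* and 1.78 for *Oas1a*. *Mx1*, a dynamin-like inhibitor of influenza virus, had 112 and 40 fragments with a ratio of 1.49 (0.95 to 2.04), *Rtp4* 124 and 52, and *Xaf1*, an apoptosis regulator, 146 and 76. *Usp18*, which removes ISG15 from proteins, had the widest rank difference, 66.8 against 26.7. Its fragments were 148 and 117 over a *GFI1-36S* local background of 1.62, and its log2 height ratio of 0.34 (-0.02 to 0.70) includes 0. The signalling genes named here were mixed. *Stat2* ranked at 55.4 and 71.3 and *Irf7* at 84.3 and 86.1, while *Irf9* on chromosome 14, whose product binds DNA with STAT2, ranked at 87.9 and 63.7. *Irf9* had 193 and 157 fragments and a log2 height ratio of 0.30 (-0.01 to 0.61), an interval that includes 0. The median difference of the interferon-stimulated genes was 26.7 points with the *GFI1-36S* lists exchanged.

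By summit height 38 of 42 interferon-stimulated genes were taller in *GFI1-36N*, beside 49.5% of all promoters. At least 1.5-fold taller were 12 of 42, beside 4.56% of all promoters. The median log2 ratio was 0.32. Without chromosomes 1, 14 and 15 the median rank difference was 12.4 points. An ISRE match lay in the promoter window of 18 of 35 interferon-stimulated genes with a RefSeq entry, 51.4%, beside 3.49% of all 27025 promoters, and among them were *Oas1a*, *Oas3*, *Oas1g*, *Rsad2* and *Ifih1*, which ranked higher in *GFI1-36N*, and *Stat2*, *Ddx58*, *Igtp* and *Irgm2*, which ranked higher in *GFI1-36S*. The immediate early and AP-1 genes, which respond to stress and handling within minutes, were also higher in *GFI1-36N* at 16 of 19, beside 46.4% of all promoters. Their median was 6.55 points, or 35.9 with the *GFI1-36S* lists exchanged. *Atf3* on chromosome 1 had 148 and 94 fragments with a log2 height ratio of 0.65 (0.27 to 1.04), and *Klf2* had 136 and 83, while *Jun* ranked at 93.0 and 97.7, and *Dusp1* at 99.6 and 99.8. Their part in the interferon and monocyte results was not tested.

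**Figure D3:**
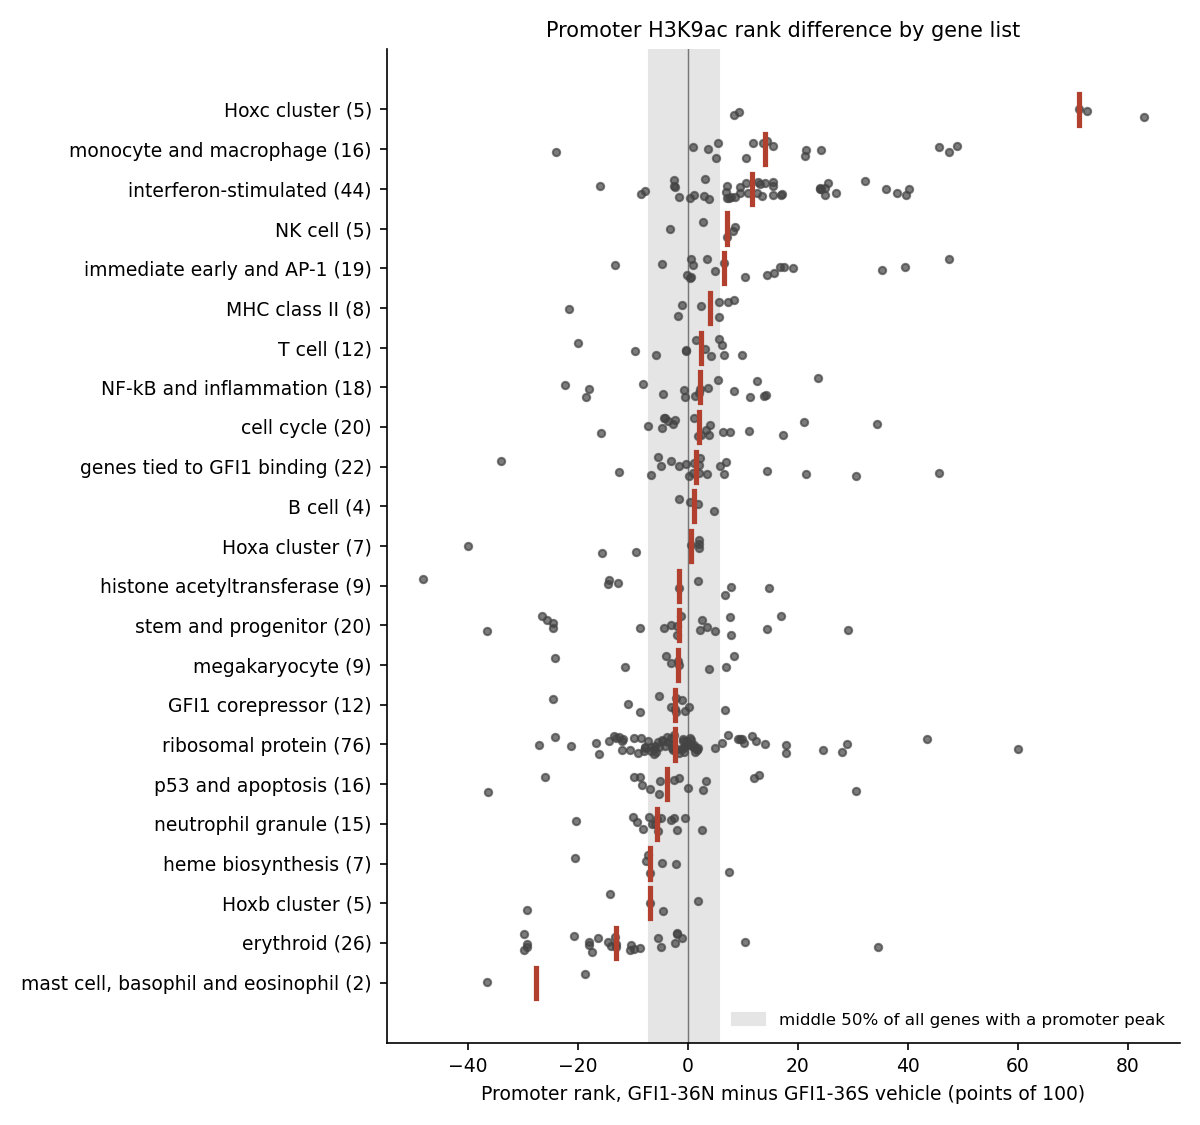
Promoter rank difference, *GFI1-36N* minus *GFI1-36S* (points of 100), of each gene with a promoter peak (dots) in 23 gene lists, with the list median as a bar and the middle 50% of all 11732 promoters shaded. The *Hoxc*, monocyte and interferon medians lie to the right at 71.2, 13.9 and 11.7, and the erythroid median to the left at -13.1.

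Erythroid genes ranked higher in *GFI1-36S*. Of 27 genes 26 had a peak, 24 ranked higher in *GFI1-36S*, beside 53.6% of all promoters, and 2 in *GFI1-36N*. The median difference was -13.1 points. By summit height 22 of 23 were taller in *GFI1-36S*, beside 49.9% of all promoters. At least 1.5-fold taller were 14, beside 3.6% of all promoters, and the median log2 ratio over the 23 was -0.86. *Rhag*, a subunit of the Rhesus complex, had 30 fragments in *GFI1-36N* and 97 in *GFI1-36S*, and *Sptb*, beta-spectrin, 42 and 106. *Car2*, carbonic anhydrase, had 57 and 114, and *Epor* 26 and 76. *Klf1*, the factor that drives the erythroid programme, had 97 and 141 fragments and ranks of 35.6 and 64.9. *Gata1*, the defining factor of the lineage, had no peak in *GFI1-36N* and 43 fragments in *GFI1-36S*. The exceptions were *Aqp1*, with 38 fragments in *GFI1-36N* alone, and *Nfe2* on chromosome 15. *Nfe2* ranked at 77.9 and 43.4, but its fragments were 202 and 184 over local backgrounds of 1.24 and 1.85, and its log2 height ratio was 0.13 (-0.16 to 0.43).

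The order of the erythroid genes depended on which *GFI1-36S* list was taken. With the lists exchanged the median was 9.75 points toward *GFI1-36N*, beside 5.65 for all promoters. The *GFI1-36S* curcumin list had a peak at 5 of the 26 genes, beside 25 in *GFI1-36S* vehicle, 24 in *GFI1-36N* vehicle and 26 in *GFI1-KD* vehicle. Heme biosynthesis genes differed less than the erythroid list. Of 7 genes with a peak 6 ranked higher in *GFI1-36S*, beside 53.6% of all promoters. The median difference was -6.96 points and the median log2 height ratio -0.07. With the lists exchanged the median difference was 6.43 points, beside 5.65 for all promoters. *Fech*, ferrochelatase, ranked at 56.0 and 76.5, with 130 and 160 fragments and a ratio of -0.30 (-0.65 to 0.04). *Alas2*, the erythroid enzyme of the first step, was near the floor of both lists with 21 and 20 fragments.

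Neutrophil granule genes were low in both lists and mostly lower in *GFI1-36N*. Of 15 genes with a peak 14 ranked higher in *GFI1-36S*, beside 53.6% of all promoters, with a median of -5.56 points, and 3 had a peak in *GFI1-36S* alone. This median turned to 10.9 points toward *GFI1-36N* with the *GFI1-36S* lists exchanged, beside 5.65 for all promoters. *S100a9*, a calcium-binding alarmin of neutrophils and monocytes, had promoter peaks of 19 fragments in *GFI1-36N*, at the bottom of the list, and 71 in *GFI1-36S*. These were neighbouring peaks that did not overlap, and at the site of the *GFI1-36S* peak the *GFI1-36N* list had a peak of 56 fragments. Its partner *S100a8* had 53 and 75. The azurophil granule genes were closer. *Mpo*, myeloperoxidase, had 82 and 92 fragments, *Elane*, neutrophil elastase and a GFI1 target, 30 and 34, *Prtn3* 46 and 45 and *Ctsg* 87 and 75, and each of their ratios had an interval that includes 0. The secondary and tertiary granule genes *Ltf* and *Mmp9* had 25 and 26 fragments in *GFI1-36S* and no *GFI1-36N* peak. In *GFI1-KD* vehicle *S100a9* ranked at 59.9 and *S100a8* at 74.9, above both libraries compared here.

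Several stem and progenitor genes stood higher in *GFI1-36S*, although the list as a whole was balanced. Of 20 genes with a peak 9 ranked higher in *GFI1-36N* and 11 in *GFI1-36S*, and the median was -1.63 points. At least 20 points higher in *GFI1-36S* were 5, beside 4.44% of all promoters. *Gata2*, a factor that stem cells and mast cells need, had 38 and 114 fragments with a log2 height ratio of -1.59 (-2.15 to -1.04). *Kit*, the receptor for stem cell factor, had 34 and 91, *Tal1* 55 and 105, *Bcl11a* 76 and 120 and *Myb* 118 and 151. *Tal1*, *Gata2* and *Kit* are also used in erythroid precursors and mast cells. The mast cell gene *Hdc* had 30 and 75 fragments, while the other mast cell, basophil and eosinophil genes, *Cpa3*, *Mcpt8*, *Ms4a2*, *Fcer1a*, *Prg2*, *Epx* and *Il5ra*, had no promoter peak in either list. *Meis1*, the cofactor of HOX proteins in leukaemia, had 49 fragments in *GFI1-36N* and no *GFI1-36S* peak. *Lmo2*, *Hhex* and *Cdk6* were strong in both, with ranks of 83.3 to 98.8. *Angpt1* on chromosome 15 ranked at 38.0 and 8.87 with 101 and 54 fragments over a *GFI1-36S* background of 1.85, and its log2 height ratio was 0.90 (0.41 to 1.41). With the *GFI1-36S* lists exchanged the list median was 16.8 points, and the exchanged *GFI1-36S* list had a peak at 6 of the 20 genes.

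The HOX clusters differed from each other. *Hoxa3*, *Hoxa7* and *Hoxa9*, of which *Hoxa9* is a driver of the leukaemia that NUP98 fusions cause, shared a peak that ranked at 99.4 and 97.4. *Hoxa4* had 103 fragments in *GFI1-36S* alone, and *Hoxa10* ranked higher in *GFI1-36S*, with a log2 height ratio of -0.36 (-0.84 to 0.12). *Hoxb5* had 83 fragments in *GFI1-36S* alone and *Hoxb4* 130 and 149 in the 2 lists. No gene of the 9 in the *Hoxd* cluster, from whose member *HOXD13* the transgene takes its homeobox, had a promoter peak in either list.

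In the *Hoxc* cluster on chromosome 15 *Hoxc4*, *Hoxc5* and *Hoxc6* stood high in *GFI1-36N*. *Hoxc4* and *Hoxc5* shared a peak of 229 fragments in *GFI1-36N*, rank 96.0, where *GFI1-36S* had 103 fragments, ranked at 24.8 for *Hoxc5*. The strongest *GFI1-36S* promoter peak of *Hoxc4*, rank 13.1, was another site 13.2 kb away, with 64 fragments beside 147 in *GFI1-36N*. *Hoxc6* had 219 and 88 fragments, *Hoxc9* 57 and 27, and *Hoxc8* 33 and no peak, while *Hoxc10*, *Hoxc11*, *Hoxc12* and *Hoxc13* had no promoter peak in either list. The *GFI1-36S* local background was 1.39 to 1.62 at *Hoxc4*, *Hoxc5* and *Hoxc6*, and the log2 height ratios were 1.15 (0.81 to 1.502) at *Hoxc5*, 1.32 (0.95 to 1.69) at *Hoxc6* and 1.08 (0.39 to 1.796) at *Hoxc9*. Within 50 kb of *Hoxc4* peaks covered 33173 bp in *GFI1-36N* and 17312 bp in *GFI1-36S*. *GFI1-36N* curcumin had 44122 bp and *GFI1-KD* curcumin 37178 bp, while *GFI1-KD* vehicle had no peak and *GFI1-36S* curcumin 1424 bp. *GFI1-36N* curcumin and *GFI1-KD* curcumin ranked *Hoxc5* at 99.2 and 82.4 and *Hoxc6* at 79.3 and 64.95, but *Hoxc8* and *Hoxc9* at 17.3 to 23.6. With the *GFI1-36S* lists exchanged the median difference of the 5 genes with a peak was 94.5 points, against 71.2.

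Among cell cycle inhibitors, named after their values were seen, some differed and others did not. *Cdkn2a*, which encodes p16INK4a and p19ARF, had 77 fragments in *GFI1-36N* and 137 in *GFI1-36S*, with a log2 height ratio of -0.83 (-1.25 to -0.42). Its neighbour *Cdkn2b*, p15INK4b, had 27 and 86, with -1.67 (-2.35 to -1.03). *Cdkn1a*, p21, a GFI1 target, had 184 and 125 with 0.56 (0.22 to 0.90). The ratios of *Cdkn1b*, *Cdkn2c* and *Cdkn2d*, which encode p27, p18 and p19INK4d, were 0.10, -0.10 and -0.12, each with an interval that includes 0. The p53 and apoptosis list as a whole had a median of -3.81 points over 16 genes.

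Genes tied to GFI1 binding in earlier work, here a list of 23 from general knowledge, showed no common direction. Of 22 with a peak 14 ranked higher in *GFI1-36N* and 8 in *GFI1-36S*, beside 46.4% and 53.6% of all promoters. The median was 1.52 points, or 19.2 with the *GFI1-36S* lists exchanged, and the median log2 height ratio 0.05. *Irf8*, *Cdkn1a* and *Csf1r* passed 20 points toward *GFI1-36N* and *Socs3*, an inhibitor of cytokine signalling with 59 and 122 fragments, toward *GFI1-36S*. *Spi1*, which encodes PU.1, ranked at 97.8 and 90.8 with 246 and 192 fragments, a log2 height ratio of 0.36 (0.08 to 0.64). *Egr2*, *Id2*, *E2f5*, *Bax* and *Gfi1* itself differed by at most 2.01 points.

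Other lists had medians near that of all promoters. They were 2.07 points for cell cycle genes, 2.17 for NF-kB and inflammation genes, -2.44 for ribosomal proteins and -1.87 for megakaryocyte genes. In the same order they were -16.5, 13.7, -5.66 and 6.97 with the *GFI1-36S* lists exchanged, beside 5.65 for all promoters. The 9 histone acetyltransferase genes had a median of -1.61, which was -12.2 without chromosomes 1, 14 and 15, where 2 of them lie. Single members stood apart. *Nfkbia* ranked at 68.7 and 91.1, *Birc3* at 68.7 and 45.0 and the platelet glycoprotein gene *Gp5* had 72 fragments in *GFI1-36S* alone. The MHC class II gene *H2-Ab1* had 39 and 72 fragments at the site of its *GFI1-36S* peak, while *H2-Aa*, *H2-Eb1* and *Cd74* had 28 to 33 in *GFI1-36N* alone. Of 5 NK cell genes with a peak, *Il2rb*, *Klrd1* and *Eomes* had 25 to 37 fragments in *GFI1-36N* alone. *Aurkb* ranked at 77.9 and 43.5 with 176 and 164 fragments over a *GFI1-36S* background of 1.62, and its log2 height ratio was 0.10.

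Distal sites differed more often than promoters, but the rules were unlike. A promoter was shared when both lists had any peak within 1 kb of a TSS of the gene. A distal site was shared only where the peaks overlapped. Merging the peaks farther than 1 kb from any TSS gave 30677 sites. Of these 12465, 40.6% (40.1 to 41.2), had a peak in both lists, 8970, 29.2%, only in *GFI1-36N* and 9242, 30.1%, only in *GFI1-36S*. The *GFI1-36N* share of the sites that differed was 49.3% (48.5 to 49.98). It was 86.8% on chromosome 15 (726 against 110 sites), 64.1% on chromosome 14 and 57.6% on chromosome 1, and 46.0% (45.2 to 46.8) without them. With the *GFI1-36S* lists exchanged the share was 86.7%, and the exchanged list held 6815 distal peaks beside 23988. Sites of 1 library were narrow, with a median of 289 bp in *GFI1-36N* and 270 bp in *GFI1-36S*, against 710 bp for shared sites. Their peaks had a median of 22 and 21 fragments, against 29 and 26 at shared sites. No peak of the other list lay within 2 kb at 5088 of the 8970 and 5164 of the 9242. Sites of 1 library lay in introns of any annotated gene at 65.4% and 65.5%, against 56.7% of shared sites. Of the *GFI1-36N* sites 44.2% had a peak in *GFI1-36N* curcumin and 34.2% in *GFI1-KD* vehicle, and of the *GFI1-36S* sites 40.5% and 45.6%, whereas 35.2% and 34.0% had a peak in no other library. Of the shared sites 89.2% and 83.6% had a peak in those 2 libraries.

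The strongest distal sites of *GFI1-36N* without a *GFI1-36S* peak within 2 kb lay in an intron of *Zfpm2*, at chr15:40660293-40663253 with 110 fragments and at chr15:40659119-40660161 with 74. An intergenic site 17.8 kb from *Fgf13*, chrX:59584575-59586570, had 90 fragments. Others followed near *Sub1*, with 68, *Usp46*, with 64, and *Ralgps2*, with 57. *Zfpm2* and *Fgf13* were also among the promoters found in *GFI1-36N* alone, so both loci were acetylated over a wider stretch. In *GFI1-36S* the strongest was an intergenic site 33.2 kb from *Pum2*, chr12:8640738-8641747, with 179 fragments. Sites in an intron of *Def8*, at chr8:123431135-123433697 and chr8:123426340-123429784, had 123 and 109, and sites near *Mpzl1*, *A830005F24Rik* and *Rnf220* had 86, 77 and 73. A rank over 90 among distal peaks was reached by 27 *GFI1-36N* and 119 *GFI1-36S* sites of 1 library.

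Some loci were partly covered by peaks in 1 library and bare in the other. In windows of 50 kb, 5 had at least 5000 bp under peaks in *GFI1-36N* and none in *GFI1-36S*, and 10 the reverse. The *GFI1-36N* windows held *Zfpm2*, the NK receptor genes *Klrd1* and *Klre1*, *Fgf13*, *Tmem47* and a stretch of chromosome 13 with no gene annotated as protein-coding. This stretch, chr13:19300001-19350000, had 8757 bp under peaks in *GFI1-36N* vehicle and 17098 bp in *GFI1-36S* curcumin. The *GFI1-36S* windows held *Mn1*, *Brinp3*, *Ncam2*, *Neo1* in 2 adjacent windows, *Pax6*, *Slc22a23*, *Slc28a3*, *Mttp* with its neighbours, and *Oaf* with *Pou2f3*. Within 50 kb of the gene, peaks covered 18536 bp at *Brinp3* and 16985 bp at *Neo1*, a netrin receptor, in *GFI1-36S*, against 0 and 566 bp in *GFI1-36N*. At both the other 4 libraries had at most 487 bp. At *Zbtb20*, a transcriptional repressor, coverage was 23289 bp in *GFI1-36N* and 7218 bp in *GFI1-36S*.

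Near monocyte, interferon-stimulated, erythroid and neutrophil granule genes, sites found in 1 library leaned toward the same genotype as the promoters of the list. Sites and promoters were not compared gene by gene. Within 100 kb of monocyte and macrophage genes, 43 sites had a *GFI1-36N* peak only and 4 a *GFI1-36S* peak only, a *GFI1-36N* share of 91.5% (80.1 to 96.6), beside 48.8% for all genes. *Irf8* had 16 *GFI1-36N* sites and no *GFI1-36S* site, *Cx3cr1*, the fractalkine receptor, 8 and 0, and *Csf1r* and *Ly6c2* 5 and 0 each. Near interferon-stimulated genes the counts were 32 and 9, 78.0% (63.3 to 88.0). Near erythroid genes they were 12 and 52, 18.8% (11.1 to 29.97), with 10 *GFI1-36S* sites at *Ank1*, and near neutrophil granule genes 4 and 22, 15.4% (6.15 to 33.5). Stem and progenitor genes, whose promoters were balanced, had 22 and 84, 20.8% (14.1 to 29.4), with 13 *GFI1-36S* sites and no *GFI1-36N* site at *Bcl11a*, 10 and 0 at *Cdk6* and 8 and 0 at *Kit*. Several sites of 1 gene are not independent, so the intervals of all these lists are too narrow to set against the share for all genes. Without chromosomes 1, 14 and 15 the shares were 90.5%, 78.9%, 19.7%, 16.0% and 21.0% in the same order of lists, beside 45.6% for all genes. Near genes tied to GFI1 binding 37 and 25 sites were found, 59.7% (47.3 to 71.0). Of the 37, 16 were the *Irf8* sites. The interval treats sites of 1 gene as independent, so it is too narrow to set against the 48.8% of all genes. Without chromosomes 1, 14 and 15 the counts near this list stayed at 37 and 25, beside the 45.6% of all genes.

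**Figure D4:**
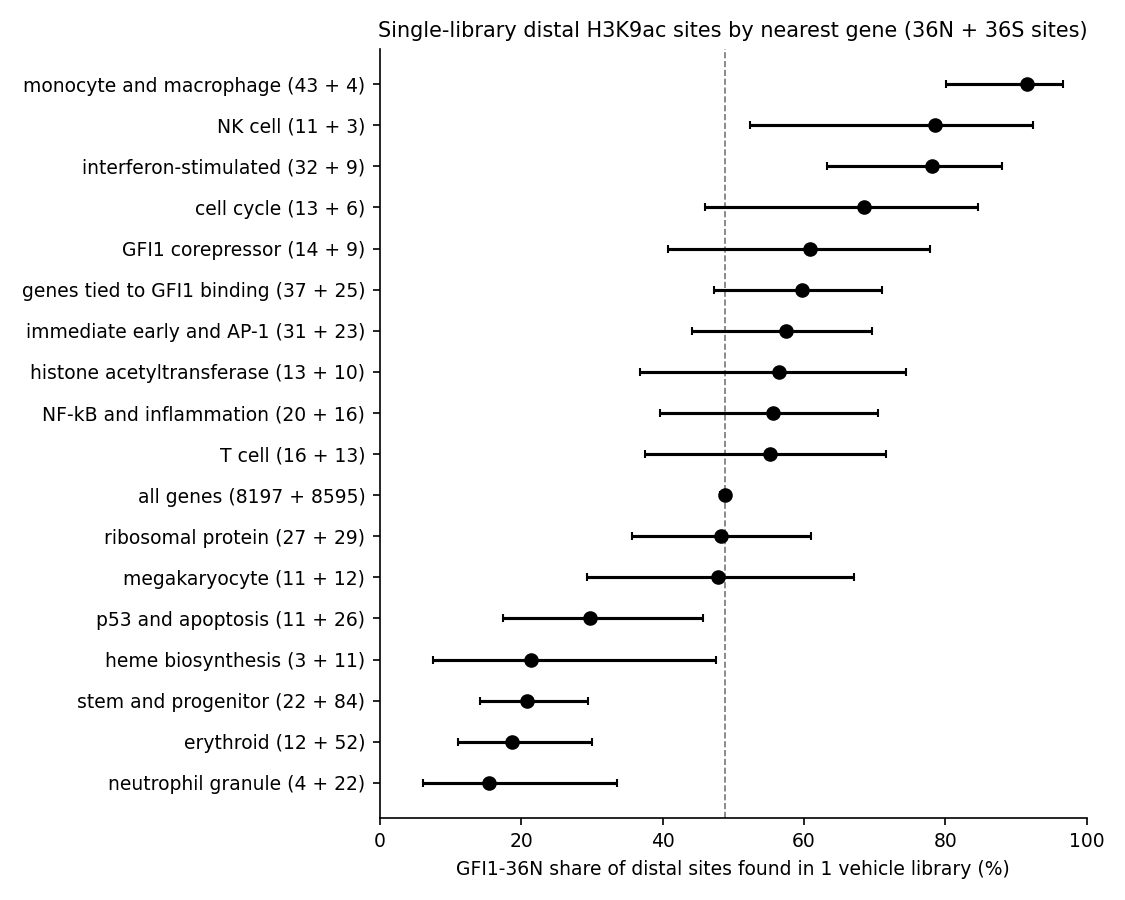
Share (%) of the distal sites found in 1 vehicle library that belong to *GFI1-36N*, by the list of the nearest gene within 100 kb, with Wilson 95% intervals and the site counts of *GFI1-36N* and *GFI1-36S* in brackets. The dashed line is the share for all genes, 48.8%. Monocyte, NK cell and interferon intervals lie above it and p53, heme, stem, erythroid and neutrophil granule intervals below it. The intervals treat sites of 1 gene as independent, so they are too narrow to set a list against the line.

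Motif matches were counted in windows of 301 bp at the distal summits. GATA matches were present in 5.07% (4.65 to 5.54) of *GFI1-36S* sites, 3.51% (3.15 to 3.91) of *GFI1-36N* sites and 4.003% of shared sites, beside 4.18% of all windows. PU.1 matches ran the other way, with 2.71% (2.39 to 3.06), 3.71% (3.34 to 4.12) and 4.38%, beside 3.68%. The GFI1 motif was rare, at 0.53% (0.40 to 0.70) of *GFI1-36S* sites, 0.85% (0.68 to 1.06) of *GFI1-36N* sites and 0.64% of shared sites, beside 0.67%. ISRE, C/EBP (TTGCNNAA), RUNX (TGTGGTTT) and CTCF (CCAC, any base, AG, any 2 bases and GG) matches, and those of AP-1 (TGANTCA) and HOX-PBX (TGATTTAT), had overlapping intervals in *GFI1-36N* and *GFI1-36S* sites, and so had the GFI1 motif. ISRE matches can overlap themselves, as in the *Oas1a* promoter. Median GC content was 47.8% at *GFI1-36N* sites, 47.2% at *GFI1-36S* sites and 49.5% at shared sites. Without chromosomes 1, 14 and 15 the GATA share was 5.18% in *GFI1-36S* and 3.52% in *GFI1-36N*, and the PU.1 share 2.68% and 3.82%.

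**Figure D5:**
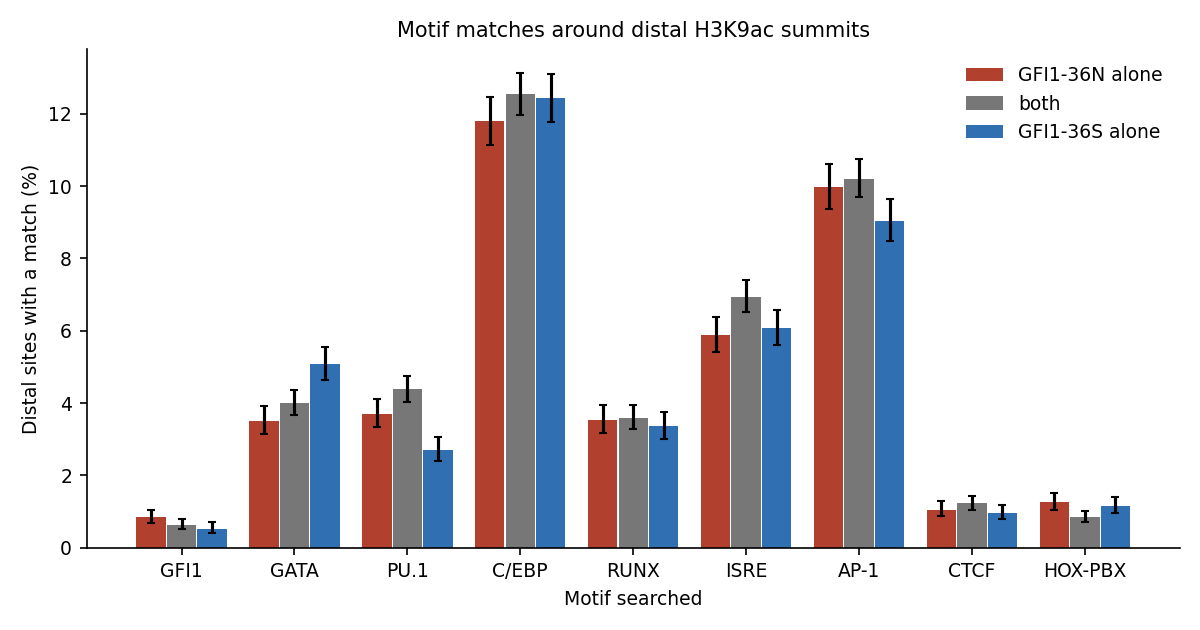
Share (%) of distal sites with a motif match in the 301 bp window at the summit, for sites of both lists and sites found only in *GFI1-36N* or only in *GFI1-36S*, with Wilson 95% intervals. GATA is at 3.51% and 5.07% and PU.1 at 3.71% and 2.71% in *GFI1-36N* and *GFI1-36S* sites, with intervals that do not overlap.

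In the promoters, GATA matches were found at 5 of 20 erythroid genes with a RefSeq entry (*Epb42*, *Epor*, *Icam4*, *Rhd* and *Trim10*), beside 1.72% of the genes with a promoter peak. PU.1 matches were found at 2 of 12 monocyte genes (*Ly6c2* and *S100a4*) and at 5 of 13 neutrophil granule genes, beside 3.28%. The monocyte and neutrophil granule lists ranked in opposite directions, with *S100a4* at 50 fragments in *GFI1-36N* and 21 in *GFI1-36S*, and *Mmp8*, with a match, at 37 and 56. Among promoters with a RefSeq entry that ranked at least 20 points higher in *GFI1-36N*, 7.17% held a PU.1 match, and among those higher in *GFI1-36S* 2.49%.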

How the data were processed

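H3K9ac ChIP-seq of BM cells was deposited as 1 peak list for each of 6 libraries. The authors trimmed reads with Trim Galore, aligned them to mm10 with BWA, called peaks per library with MACS2 and removed blacklisted regions. The deposited columns hold an integer score, the fold enrichment at the summit (a ratio to the local background) and the −log10 p-value and −log10 q-value of each peak, none scaled between libraries. The control of each list is not given in the sources used here, and the input and IgG samples were not analysed here.

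Promoters were 1 kb on each side of a TSS of GENCODE M21 coding genes, and lists were compared by an overlap of at least 1 bp. Comparisons used no test, since each group had 1 library. Fragments were recovered as the whole number that gave both fold enrichment and −log10 p within 0.002, which worked for 100% of 5000 simulated peaks. Exact binomial intervals were used for heights and Wilson intervals for shares. Named genes were *Gfi1*, the 8 promoters of highest rank found in each list alone with no peak of the other within 3 kb, the 8 with the widest rank difference in each direction among shared promoters, the 6 highest distal sites per direction and 2 or more members of each gene list. Several further members were named to show a pathway, after their values were seen. The members and lists were chosen with earlier results of these data known. The alternatives tried were peaks with −log10 q from 5 upward, the top 20000 peaks per list, other windows, ranks by −log10 p and exchanged *GFI1-36S* lists. Ranks by height, the removal of chromosomes 1, 14 and 15 and heights at overlapping peaks alone were added after seeing the data. RefSeq promoters were matched by symbol. Tools were pandas 2.3.3, scipy 1.17.1 and numpy 2.4.6 under Python 3.11.15.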

Additional observations from a re-analysis of the deposited data

Results flagged for a closer look

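A signal outside the peak comparison was present in the local background of the *GFI1-36S* vehicle list. The mean local background at its peaks was 1.63 times the genome background on chromosome 15, 1.26 on chromosome 14 and 1.18 on chromosome 1, whereas the *GFI1-36N* list stayed between 1.02 and 1.03 on all chromosomes. The summit heights of the library labelled *GFI1-36S* curcumin, set against *GFI1-36S* vehicle, were raised on the same chromosomes, with centred median log2 ratios of 0.72, 0.38 and 0.14, against -0.18 to 0.02 on the others.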

How the results depend on the processing

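No paired analysis was possible because each group had 1 library and no test was run. The *GFI1-36N* share of promoters with a peak in 1 library, 47.1%, was 54.4% at a −log10 q of at least 5 and 88.8% with the *GFI1-36S* lists exchanged. The *GFI1-36N* share of distal sites found in 1 library, 49.3%, was 58.3% at that threshold, 54.0% for the 20000 top peaks, 50.5% beyond 5 kb from a TSS, 46.0% without chromosomes 1, 14 and 15 and 86.7% with the lists exchanged. Shared distal sites, 40.6%, were 42.8%, 47.7% and 42.5% under the first 3 of these, 50.6% when peaks within 1 kb counted as 1 site and 10.5% with the lists exchanged. The *GFI1-36N* share of promoters past 20 points, 56.6%, was 50.5% with ranks by −log10 p, 49.5% with ranks by summit height, 53.2% without chromosomes 1, 14 and 15 and 74.6% with the lists exchanged. By −log10 p 418 genes passed toward *GFI1-36N* and 409 toward *GFI1-36S*, and by height 379 and 386, against 679 and 521. The exchanged *GFI1-36S* list held 20354 peaks beside 41312. The cause of these shifts was not tested.

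Without promoters whose strongest peaks do not overlap, also chosen after seeing the data, the *GFI1-36N* share of height ratios past 1.5-fold was 55.9%, as before.

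Of 23 gene lists 5 had a median of at least 10 points. Over 7 settings, 32 of their 34 values stayed on the same side. With the lists exchanged the erythroid median was 9.75. The mast cell, basophil and eosinophil median, over 2 genes, was then 8.57, and that of all promoters 5.65. With 1 library per genotype, differences between animals cannot be told apart from those between genotypes. Peaks near the calling limit rest on fewer than 30 fragments.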

Other observations

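No peak lay on chromosome Y in either vehicle list, while the *GFI1-36S* curcumin list held 3. Broad peaks of at least 4 kb numbered 503 in *GFI1-36N* and 520 in *GFI1-36S*. Of the promoters with a peak in *GFI1-36S* alone, 69.4% had a peak in *GFI1-36N* curcumin, 64.7% in *GFI1-KD* vehicle and 17.5% in *GFI1-36S* curcumin. For those in *GFI1-36N* alone the shares were 59.7%, 51.3% and 19.7%.

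Some promoters with a wide height difference lay outside the rank-based naming. *Hist1h1t*, a testis linker histone gene in the main histone cluster, had 114 fragments in *GFI1-36N* and 21 in *GFI1-36S*. The *GFI1-36N* peak, from 23696735 to 23698447 on chromosome 13, began past the end of the gene at 23696725. The *GFI1-36S* peak, from 23696506 to 23696767, overlapped it only at its edge, so the fragments may belong to neighbouring sites. *Ifi27l2a*, an interferon-stimulated gene outside the list, had 117 and 30, and *Trim5*, whose family restricts retroviruses, 102 and 20. Toward *GFI1-36S*, *Spry2*, an inhibitor of receptor tyrosine kinase signalling on chromosome 14, had 29 and 111 over a *GFI1-36S* background of 2.08, and *Ntn4*, a netrin, 30 and 114. These genes were chosen after their values were seen.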
